A study of Homo sapiens with 12 samples.

Results

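The BCL2 family decides whether mitochondria release cytochrome c and start the caspase cascade. Its anti-apoptotic members hold the pore-forming effectors BAX and BAK1 in check, and its BH3-only members, which share a single short homology domain, are induced or activated by stress and either block the guardians or activate the effectors directly. In the intestinal epithelium the balance among these proteins is known to govern how readily cells die after DNA damage or loss of survival signals. Transcripts of 10 genes of the family were examined: the anti-apoptotic BCL2L1 (BCL-XL), MCL1 and BCL2L2 (BCL-W), the effectors BAX and BAK1, and the BH3-only genes BID, BIK, BCL2L11 (BIM), BBC3 (PUMA) and PMAIP1 (NOXA). They were taken by symbol from a table of 25528 genes, and all 10 were listed in it.

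The libraries came from HT-29 cells, a line established from a human colon adenocarcinoma, whose genotype is labelled APC mutant in every group, so the controls carry that mutation too. The study asked what a further activation of WNT signalling does to gene expression, by 2 routes. In the first arm, lentivirus carried an open reading frame for GFP or for CTNNB1 (β-catenin), and cells were collected 2 days after infection. In the second arm, lentivirus delivered a short hairpin RNA, the control shNT1 or the APC-directed shAPC. Doxycycline at 2 µM switched the hairpin on 1 day before these cells were taken. There were 3 mRNA libraries for each of the 4 groups. The labels do not say that these came from separate cultures, so p-values measure the spread between these libraries, which may be technical. One cell line was used, and the labels do not give the promoter driving either open reading frame, the hairpin sequence or the number of clones. The 2 arms differ in vector, collection day and doxycycline, so a difference between their effects cannot be told apart from those.

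Expression was given as TPM, the transcript share of a library, a level scaled for transcript length and to the same total in every library, which makes levels of different genes comparable but keeps no record of sequencing depth. The depth of the libraries is therefore unknown here, and 14756 to 16186 genes were above 0 in each. Within a group, libraries correlated at r = 0.991 to 0.997 over 11741 genes. APC was at 15.8, 16.1 and 17.3 TPM in shNT1 and at 6.59, 5.91 and 5.48 TPM in shAPC, a log2 fold change of -1.32 (SE 0.08, limma adjusted p = 6.1e-06). CTNNB1 was at 144.2, 145.2 and 149.6 TPM in GFP and at 164.6, 159.6 and 156.2 TPM in CTNNB1 libraries; the groups did not overlap, but limma's adjusted p of 0.059 missed the threshold (log2 fold change 0.13, SE 0.04). Whether the construct's reads are counted under the gene is not given in the sources used here. Of 9 colon epithelium markers, 8 had a mean of at least 1 TPM (CDX2 did not), while 0 of 5 fibroblast and 0 of 4 endothelial markers did. Of 5 leukocyte markers 2 did, CD68 and CD14, and CD3E was at 0 in all libraries. The summed level of the leukocyte list moved with the groups. It was 28.9 to 30.2 TPM in GFP, 14.9 to 16.9 in CTNNB1, 15.5 to 17.6 in shNT1 and 8.90 to 11.05 in shAPC. Most of it was CD68, a lysosomal protein gene, with means of 26.96, 13.22, 13.81 and 7.51 TPM in that order. The CD14 means were 2.28, 2.44, 2.56 and 2.53 TPM. The part of this shift in the results below was not tested. The epithelial list summed to between 11003 and 11160 TPM in GFP, 12310 and 12394 in CTNNB1, 9275 and 10828 in shNT1, and 8905 and 9815 in shAPC. In bulk RNA, fewer cells of a type and less RNA per cell cannot be told apart.

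Among the 10 genes, those that passed the test in at least 1 arm were BCL2L1, MCL1, BCL2L2, BAX, BCL2L11 and BBC3. RefSeq promoter windows on GRCh38.p14 were matched for 7 of the 10 genes, in 12 windows (MCL1, BCL2L2 and BIK had no entry), and the 4 of them that passed the test are shown as the 250 bases before the transcription start, since β-catenin acts on DNA through TCF/LEF factors. Capitals mark the core of the TCF/LEF motif, CTTTG or its reverse complement CAAAG. Each sequence reads 5′ to 3′ along the gene's strand. BBC3 lies at chr19:47232668-47232917 on the minus strand, BCL2L1 at chr20:31723964-31724213 on the minus strand, BAX at chr19:48954625-48954874 on the plus strand and BCL2L11 at chr2:111120664-111120913 on the plus strand.
BBC3: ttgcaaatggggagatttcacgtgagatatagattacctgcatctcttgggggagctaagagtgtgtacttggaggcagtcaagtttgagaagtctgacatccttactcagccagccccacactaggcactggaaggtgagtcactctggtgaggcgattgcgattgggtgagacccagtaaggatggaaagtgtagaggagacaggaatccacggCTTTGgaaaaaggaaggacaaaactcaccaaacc
BCL2L1: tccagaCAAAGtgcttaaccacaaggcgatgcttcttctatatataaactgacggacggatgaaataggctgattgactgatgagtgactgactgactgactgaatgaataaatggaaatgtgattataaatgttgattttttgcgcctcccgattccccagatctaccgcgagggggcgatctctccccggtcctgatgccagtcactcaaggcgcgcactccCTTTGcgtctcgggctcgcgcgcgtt
BAX: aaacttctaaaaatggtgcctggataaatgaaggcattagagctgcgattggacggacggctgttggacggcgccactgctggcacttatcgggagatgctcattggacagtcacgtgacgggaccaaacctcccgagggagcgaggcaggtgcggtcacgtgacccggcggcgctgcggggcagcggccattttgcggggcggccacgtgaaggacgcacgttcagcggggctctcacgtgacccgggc
BCL2L11: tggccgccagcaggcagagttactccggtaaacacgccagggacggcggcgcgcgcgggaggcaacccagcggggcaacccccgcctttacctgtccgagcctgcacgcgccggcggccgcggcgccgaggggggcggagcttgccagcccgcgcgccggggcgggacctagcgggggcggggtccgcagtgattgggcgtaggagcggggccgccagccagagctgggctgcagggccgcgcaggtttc

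The BCL2L1 window held the core at 2 places, beginning 244 bases before the start in the reverse orientation and 26 bases before it in the forward orientation. The BBC3 window held it once, beginning 34 bases before the start, and the BAX and BCL2L11 windows did not hold these letters. A second BCL2L1 window, chr20:31722869-31723118, had no match either. Over all the family's windows, the core was found in 4 of 7 genes (BCL2L1, BAK1, BID and BBC3) and in 5 of 12 windows, some of which overlap. Of 35116 promoter windows of the same length, 42.1% held it. The longer CTTTGAT, which contains CTTTG, was searched on both strands and was found in 1 gene, BAK1, against 2.26% of all promoters. For the core, the share among the family's windows was thus near that of all promoters, while 1 gene with CTTTGAT is too few to compare shares. Among 12864 windows of genes with a mean of at least 1 TPM, the shares were 35.1% for CTTTG and 1.38% for CTTTGAT. The BBC3 window was poor in G and C (49.2%, 4 CpG dinucleotides) beside that of BCL2L11 (76.8%, 34 CpG) and BAX (62.8%, 25 CpG), and that of BCL2L1 was in between in CpG number (17 CpG). The median over all promoters was 58.0%.

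All 10 genes had a mean of at least 1 TPM over the libraries of each comparison and so all entered the tests. MCL1 (mean over the 12 libraries 184 TPM), BCL2L1 (177 TPM) and BAX (134 TPM) stood far above the others and together made up 82.2% to 84.0% of the summed TPM of the 10 genes in every library. Of 11741 genes compared, 92.7% had a lower mean than MCL1, 92.4% lower than BCL2L1 and 89.9% lower than BAX. BID followed at 35.2 TPM, BAK1 at 24.1, BCL2L2 at 12.8, PMAIP1 at 12.2, BCL2L11 at 10.5, BBC3 at 4.79 and BIK at 1.83 TPM, the last with only 6.23% of genes below it. The order of MCL1 and BCL2L1 was not separable everywhere: their libraries overlapped in GFP, CTNNB1 and shAPC, and only in shNT1 was MCL1 above BCL2L1 in every library. BCL2L2, PMAIP1 and BCL2L11 likewise overlapped as neighbours in several groups, PMAIP1 with BCL2L11 in GFP and CTNNB1, PMAIP1 with BCL2L2 in CTNNB1 and shNT1, and BCL2L2 with BCL2L11 in shAPC.

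**Figure D1:**
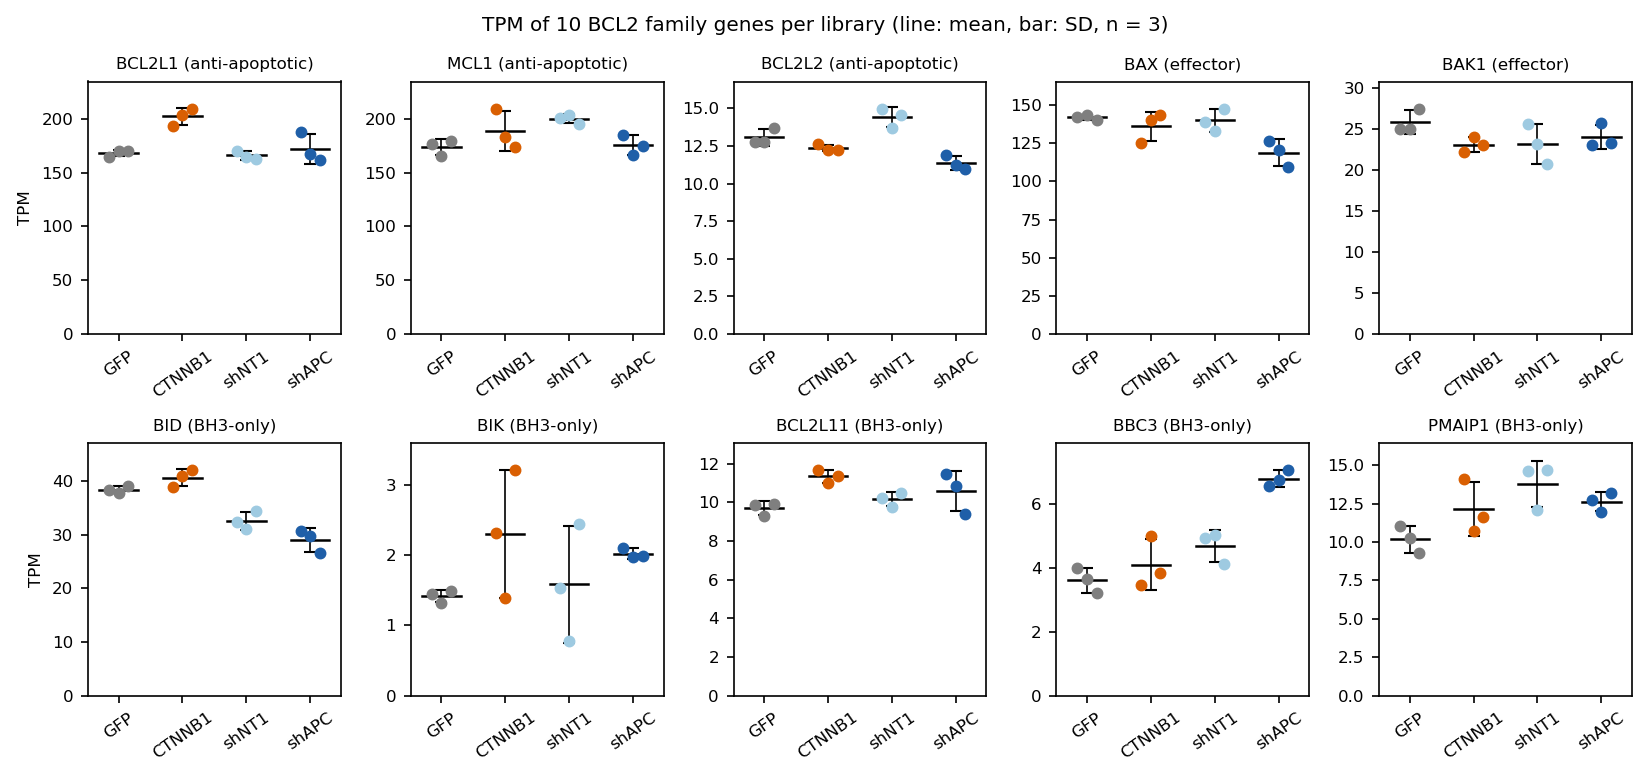
Level of each of the 10 genes in TPM (vertical axes start at 0 and differ between panels) in the 4 groups; points are libraries, lines are group means and bars are SD, n = 3. The 3 shAPC points of BBC3 lie between 6.54 and 7.05 TPM, above all shNT1 points, and the 3 CTNNB1 points of BCL2L1 lie above all GFP points.

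In the CTNNB1 arm, the anti-apoptotic BCL2L1 and the BH3-only BCL2L11 rose, by 20.3% and 16.8% of the mean TPM, and no member fell. A gene is said to have risen or fallen where limma's moderated test on log2(TPM + 1), fitted to all genes with a mean of at least 1 TPM in the comparison, gave a Benjamini-Hochberg adjusted p under 0.05. By that rule 2 of the 10 genes rose, against 16.3% of the 11624 genes tested that rose, and 0 fell, against 7.16%. In all, 2 of 10 passed, against 23.5% of all genes, so the share among the family was close to the background. At an unadjusted p under 0.05, 4 members were higher and 1 lower (4322 of the 11624 genes in both directions). After median-ratio scaling or quantile normalization 1 member rose and 1 fell (BAK1, with BCL2L11 no longer called), and the calls over all genes, 1898 higher and 832 lower without it, were 1254 higher and 1461 lower after median-ratio scaling. The groups did not overlap for 4 of the 10 genes (BCL2L1, BCL2L2, BAK1 and BCL2L11), against 43.2% of all genes. The median log2 fold change of the 10 genes was 0.13, beside 0.06 over all genes.

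In the shAPC arm, the BH3-only BBC3 rose by 45.1% of its mean TPM, the largest change that passed the test among the 10 genes in either arm. Of the anti-apoptotic genes, BCL2L2 changed by -21.0% and MCL1 by -12.3%, both falls. The effector BAX fell by 15.1%. Thus 4 of 10 passed, against 22.1% of the 11834 genes tested; 1 of 10 rose, against 7.24%, and 3 of 10 fell, against 14.9%. Only BBC3 and BCL2L2 passed in all 8 other settings, so a count above the background rests on MCL1 and BAX. At an unadjusted p under 0.05, 1 member was higher and 4 lower, beside 4286 of the 11834 genes in both directions. The groups did not overlap for 5 of the 10 genes (MCL1, BCL2L2, BAX, BID and BBC3), against 40.9%. The median log2 fold change was -0.03, beside -0.04 over all genes, and it was 0.01 after scaling each library by median ratios.

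**Figure D2:**
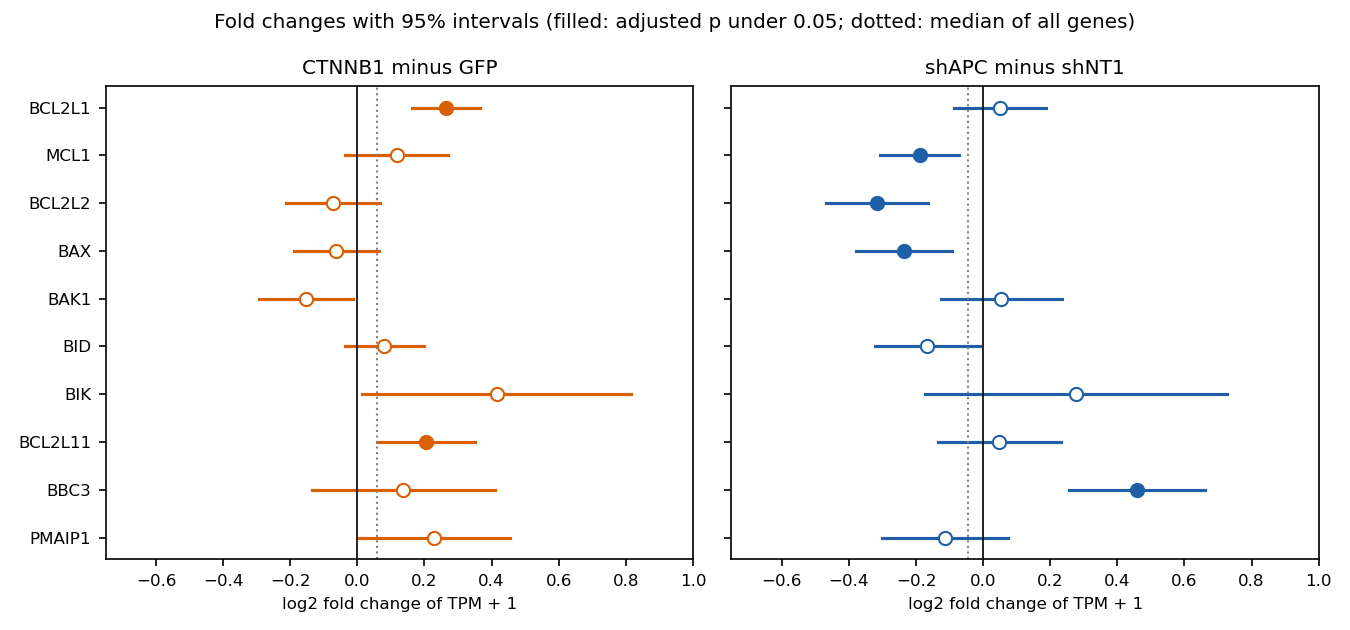
Log2 fold change of the 10 genes on the log2(TPM + 1) scale in both arms, with 95% confidence intervals from limma; filled points passed the adjusted test. BCL2L1 and BCL2L11 passed in the CTNNB1 arm, and MCL1, BCL2L2, BAX and BBC3 in the shAPC arm.

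Among the anti-apoptotic genes, BCL2L1 (ENSG00000171552, chr20:31664452-31723989, minus strand, GENCODE v29 on GRCh38), which encodes the guardian that binds BAX, BAK1 and several BH3-only proteins at the mitochondrial membrane, was at 164.6, 169.9 and 169.9 TPM in GFP and at 193.6, 203.6 and 209.4 TPM in CTNNB1. Every CTNNB1 library was above every GFP library. Its log2 fold change was 0.26 (SE 0.05, 95% interval 0.16 to 0.37, limma adjusted p = 0.0031), and it passed the test in 8 of 8 other settings over all libraries and whichever of the 6 libraries was left out. In the second arm BCL2L1 was at 170.4, 164.6 and 162.9 TPM in shNT1 and at 187.8, 167.0 and 161.6 TPM in shAPC. These groups overlapped, with 1 shAPC library above the rest, and the log2 fold change of 0.05 (95% interval -0.09 to 0.19, adjusted p = 0.60) did not pass. The difference between the 2 arms' effects, 0.21 (SE 0.08, 95% interval 0.05 to 0.38), missed the threshold in limma's test of the difference (adjusted p = 0.073), so the rise was not shown to be particular to CTNNB1 overexpression. An antisense gene, ABALON, covers 43.0% of the exon bases of BCL2L1; it was at a mean of 0.519 TPM, and whether counting used strand is not stated.

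MCL1 (ENSG00000143384, chr1:150574551-150579738, minus strand), a short-lived guardian that is lost quickly when its transcription or translation stops, was at 176.4, 164.9 and 179.1 TPM in GFP and at 209.4, 183.4 and 173.4 TPM in CTNNB1. These groups overlapped (log2 fold change 0.12, 95% interval -0.04 to 0.27, adjusted p = 0.25). In the hairpin arm it was at 200.9, 203.6 and 195.2 TPM in shNT1 and at 184.8, 166.3 and 174.8 TPM in shAPC, every shAPC library below every control. It fell by 0.19 on the log2 scale (SE 0.05, 95% interval -0.31 to -0.07, limma adjusted p = 0.030). This call was lost in 5 of 8 other settings (adjusted p 0.023 to 0.16 over the 8) and in 4 of 6 fits without 1 library, those without shNT1 replicate 1 or 2 or shAPC replicate 2 or 3 (adjusted p 0.022 to 0.11 over the 6). MCL1 was the only 1 of the 10 genes whose effect differed between the arms: the CTNNB1 effect minus the shAPC effect was 0.31 (SE 0.09, 95% interval 0.11 to 0.50, limma adjusted p = 0.035), against 16.1% of the 11741 genes tested. Over all genes the median of this difference was 0.11, and scaling by median ratios moves that median by -0.10. Under that scaling the MCL1 difference was 0.19 (adjusted p = 0.12) and no longer passed; over all 12 libraries it passed in 3 of 7 other settings (adjusted p 0.027 to 0.12). It was lost in 7 of 12 fits without 1 library (GFP 1 or 2, CTNNB1 1, shNT1 1 or 2, shAPC 2 or 3; adjusted p 0.015 to 0.097 over the 12). Without scaling, 82.8% of the genes called in this contrast had a higher CTNNB1 effect than shAPC effect. With it, 54.7% did.

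BCL2L2 (ENSG00000129473, chr14:23298790-23311759, plus strand), a guardian closely related to BCL2L1 and much less abundant in these cells, was at 12.7, 12.8 and 13.7 TPM in GFP and at 12.6, 12.2 and 12.3 TPM in CTNNB1. The CTNNB1 libraries were the lower ones without overlap, but the test was not passed (log2 fold change -0.07, SE 0.06, adjusted p = 0.42). In shNT1 it was at 14.98, 13.7 and 14.6 TPM and in shAPC at 11.9, 11.2 and 10.98 TPM. Every shAPC library was thus below every control, and below every library of the other arm too. It fell by 0.32 on the log2 scale (SE 0.07, 95% interval -0.47 to -0.16, limma adjusted p = 0.0095) and passed in 8 of 8 other settings and in 6 of 6 fits without 1 library. The difference between arms was 0.24 (adjusted p = 0.069). A read-through gene, BCL2L2-PABPN1, shares 19.4% of the exon bases of BCL2L2 and was listed at 0 in all 12 libraries; how reads shared by both genes were assigned is not stated.

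Of the effectors, which oligomerise in the outer mitochondrial membrane, BAX (ENSG00000087088, chr19:48954815-48961798, plus strand) was at 142.5, 143.4 and 140.0 TPM in GFP and at 125.1, 140.0 and 143.2 TPM in CTNNB1. The groups overlapped, with 1 low CTNNB1 library (log2 fold change -0.06, SE 0.06, adjusted p = 0.45). In shNT1 it was at 138.8, 133.3 and 147.7 TPM and in shAPC at 126.6, 120.3 and 109.4 TPM, without overlap. It fell by 0.24 on the log2 scale (SE 0.07, 95% interval -0.38 to -0.09, limma adjusted p = 0.028). The call was lost in 4 of 8 other settings (adjusted p 0.014 to 0.078) and in 4 of 6 fits without 1 library, those without shNT1 replicate 1 or 3 or shAPC replicate 2 or 3 (adjusted p 0.028 to 0.10). BAK1 (ENSG00000030110, chr6:33572547-33580293, minus strand) was at 25.0, 25.0 and 27.5 TPM in GFP and at 22.2, 24.1 and 23.1 TPM in CTNNB1. The CTNNB1 libraries were all lower, and the log2 fold change of -0.15 (95% interval -0.29 to -0.01, adjusted p = 0.10) did not pass; it did after median-ratio scaling (-0.22, adjusted p = 0.031) and quantile normalization (-0.21, adjusted p = 0.036). In shNT1 BAK1 was at 25.6, 23.2 and 20.8 TPM and in shAPC at 23.1, 25.8 and 23.3 TPM, overlapping (log2 fold change 0.05, adjusted p = 0.67). Neither effector differed between arms by the test (adjusted p = 0.20 for BAX and 0.19 for BAK1).

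BBC3 (ENSG00000105327, chr19:47220822-47232766, minus strand), a potent BH3-only gene and a known target of FOXO3, had the largest called change among the 10 genes. It was at 3.98, 3.63 and 3.20 TPM in GFP and at 3.45, 4.99 and 3.83 TPM in CTNNB1, overlapping groups in which 1 CTNNB1 library was high (log2 fold change 0.14, 95% interval -0.14 to 0.41, adjusted p = 0.45). It was at 4.91, 5.00 and 4.10 TPM in shNT1 and at 6.54, 6.75 and 7.05 TPM in shAPC, and the shAPC libraries were above all others in the study. Its log2 fold change was 0.46 (SE 0.09, 95% interval 0.26 to 0.66, limma adjusted p = 0.0060). BBC3 passed in 8 of 8 other settings and in 6 of 6 fits without 1 library, and its log2 fold change was then between 0.38 and 0.53. The difference between arms was -0.32 (95% interval -0.66 to 0.01, adjusted p = 0.17), so the effects were not shown to differ.

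BCL2L11 (ENSG00000153094, chr2:111119378-111168447, plus strand), whose product BIM binds all the guardians and is controlled by FOXO factors, was at 9.89, 9.32 and 9.94 TPM in GFP and at 11.68, 10.998 and 11.38 TPM in CTNNB1. All CTNNB1 libraries were above all GFP libraries, and the log2 fold change was 0.20 (SE 0.06, 95% interval 0.06 to 0.35, limma adjusted p = 0.047). That p lay close to the threshold, and the call was lost in 5 of 8 other settings (adjusted p 0.034 to 0.15) and in 6 of 6 fits without 1 library (adjusted p 0.052 to 0.18). In the hairpin arm BCL2L11 was at 10.2, 9.79 and 10.5 TPM in shNT1 and at 11.5, 10.9 and 9.42 TPM in shAPC, with shAPC libraries on both sides of the controls (log2 fold change 0.05, 95% interval -0.13 to 0.23, adjusted p = 0.71). The opposite-strand gene MIR4435-2HG covers 10.9% of the BCL2L11 exon bases and had means of 6.70 TPM in GFP, 4.85 in CTNNB1, 4.03 in shNT1 and 3.69 in shAPC; its part in the BCL2L11 level was not tested.

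The other BH3-only genes passed the test in neither arm. BID (ENSG00000015475, chr22:17734138-17774770, minus strand), which links death receptors to mitochondria once caspase-8 has cut it, was at 38.4, 37.8 and 39.1 TPM in GFP and at 38.9, 41.1 and 42.1 TPM in CTNNB1, overlapping (log2 fold change 0.08, adjusted p = 0.30). It was at 32.4, 31.1 and 34.5 TPM in shNT1 and at 30.7, 29.9 and 26.5 TPM in shAPC, all lower than the controls (log2 fold change -0.17, 95% interval -0.32 to -0.01, adjusted p = 0.12). BID was the most abundant BH3-only transcript in every group, with 60.7% ± 1.4 (SD, n = 3) of the summed BH3-only TPM in GFP, 57.7% ± 2.2 in CTNNB1, 52.0% ± 1.0 in shNT1 and 47.5% ± 1.7 in shAPC. PMAIP1 (ENSG00000141682, chr18:59899948-59904306, plus strand), which binds MCL1 and promotes its breakdown, was at 11.02, 10.25 and 9.28 TPM in GFP and at 14.1, 10.7 and 11.6 TPM in CTNNB1, overlapping (log2 fold change 0.23, 95% interval 0.00 to 0.45, adjusted p = 0.13). It was at 14.6, 12.1 and 14.7 TPM in shNT1 and at 12.74, 11.97 and 13.19 TPM in shAPC, also overlapping (log2 fold change -0.11, adjusted p = 0.37). BIK (ENSG00000100290, chr22:43110748-43129712, plus strand), a BH3-only protein of the endoplasmic reticulum, was near the lower limit of the tests, and of the 10 genes it varied most between the libraries of CTNNB1 and of shNT1. It was at 1.45, 1.32 and 1.49 TPM in GFP and at 2.32, 1.39 and 3.21 TPM in CTNNB1 (log2 fold change 0.41, 95% interval 0.01 to 0.82, adjusted p = 0.12). In shNT1 it was at 1.53, 0.776 and 2.44 TPM and in shAPC at 2.11, 1.97 and 1.98 TPM (log2 fold change 0.28, adjusted p = 0.36). It passed only when a single library was left out, CTNNB1 replicate 2 in the first arm (0.63, adjusted p = 0.017) or shNT1 replicate 3 in the second (0.51, adjusted p = 0.040).

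Ratios within a library do not depend on its scaling and set the guardians against the effectors. They were chosen after the values were seen and are described without a test. The ratio of BCL2L1 to BAX was 1.16, 1.18 and 1.21 in GFP and 1.55, 1.45 and 1.46 in CTNNB1, and 1.23, 1.24 and 1.10 in shNT1 and 1.48, 1.39 and 1.48 in shAPC. It was higher in both treated groups than in their controls without overlap. Ratios of the other guardians to BAX, or of any single guardian to BAK1, were not computed. For scale, single-gene levels did not overlap for 43.2% of genes in the CTNNB1 arm and 40.9% in the shAPC arm. Of the 2 parts of the BCL2L1 to BAX ratio, BCL2L1 passed the test in the CTNNB1 arm and BAX in the shAPC arm. The ratio of MCL1 to BCL2L1 was 1.03 ± 0.05 (SD, n = 3) in GFP, 0.937 ± 0.131 in CTNNB1, 1.204 ± 0.029 in shNT1 and 1.02 ± 0.05 in shAPC; it did not separate GFP from CTNNB1 and was lower in every shAPC library than in any shNT1 library. The 3 anti-apoptotic genes together were at 355 ± 8 TPM in GFP, 403 ± 11 in CTNNB1, 380.3 ± 7.0 in shNT1 and 359 ± 22.3 in shAPC, and the 2 effectors at 168 ± 1, 159 ± 10, 163 ± 6 and 143 ± 9 TPM in the same order. The quotient of these sums was 2.06 to 2.17 in GFP and 2.38 to 2.82 in CTNNB1, without overlap, and 2.21 to 2.44 in shNT1 and 2.36 to 2.62 in shAPC, with overlap. The 5 BH3-only genes summed to 63.4 ± 1.2 TPM in GFP, 70.6 ± 1.5 in CTNNB1, 62.9 ± 3.8 in shNT1 and 61.0 ± 2.7 in shAPC. Transcript ratios are not protein ratios, since MCL1, BIM and NOXA are known to be controlled strongly after transcription.

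**Figure D3:**
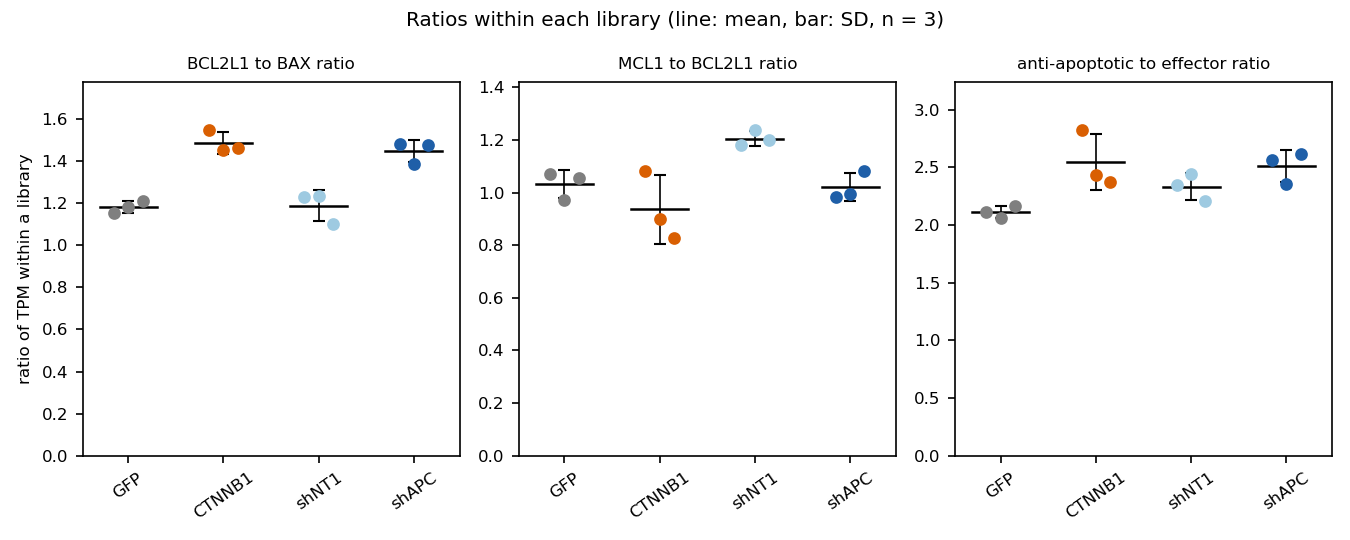
Ratios of TPM within each library for BCL2L1 to BAX, MCL1 to BCL2L1, and the summed anti-apoptotic to the summed effector genes (vertical axes start at 0); points are libraries, lines means and bars SD, n = 3. The BCL2L1 to BAX ratio lies at 1.39 or above in every CTNNB1 and shAPC library and at 1.24 or below in every control. The ratios were chosen after the values were seen, and were not tested.

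In the authors' deposited tables of limma comparisons, whose model and filters are not given in the sources used here, all 10 genes had the same sign as above in both arms. The calls differed near the threshold. In the authors' deposited table for the CTNNB1 arm, BCL2L11 (log2 fold change 0.15, adjusted p = 0.037) and BCL2L2 (-0.15, adjusted p = 0.037) were under 0.05, while BCL2L1 was not (0.19, adjusted p = 0.081). In the authors' deposited table for the shAPC arm, BBC3 (0.57, adjusted p = 0.032), BCL2L2 (-0.30, adjusted p = 0.014) and BAX (-0.20, adjusted p = 0.041) were under 0.05, and MCL1 was not (-0.15, adjusted p = 0.10). BCL2L11 in the CTNNB1 arm and BBC3, BCL2L2 and BAX in the shAPC arm were therefore called in both analyses of the same libraries.

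Over the 12 libraries, the genes whose log2(TPM + 1) followed the 2 members with the largest called changes most closely, among 9439 genes with a mean of at least 5 TPM, were LRRC75A-AS1 (Pearson r = 0.949), IFT43 (0.946) and RPS3 (0.937) for BBC3, and PAK1 (0.967), CAPN5 (0.966) and SIPA1L2 (0.953) for BCL2L2. These points share 4 groups and the same libraries, and the values are a description. LRRC75A-AS1 had means of 229.6, 241.0, 265.9 and 353.1 TPM in GFP, CTNNB1, shNT1 and shAPC, rising in shAPC (log2 fold change 0.41, limma adjusted p = 0.00077) as BBC3 did. CAPN5 had means of 10.0, 7.55, 13.3 and 6.39 TPM in the same order and fell in shAPC (log2 fold change -0.95, limma adjusted p = 9.5e-05), as BCL2L2 did. It also fell in the CTNNB1 arm (-0.36, limma adjusted p = 0.019), where BCL2L2 did not pass. LRRC75A-AS1 and CAPN5 were picked for following a member over these libraries, so a like change follows in part from the choice.

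The rest of the BCL2 family was taken as a list of 13 genes, of which 8 passed the filter on low values. BCL2 itself, the founding guardian, was at group means of 0.158 to 0.338 TPM, and BCL2A1 was at 0 in all libraries, so among the guardians these cells held mainly BCL2L1 and MCL1 transcripts. In the CTNNB1 arm 4 of 8 passed, 3 higher and 1 lower, against 23.5% of all genes (16.3% higher and 7.16% lower), and the median log2 fold change was 0.13. BMF, a BH3-only gene tied to the cytoskeleton, was at 1.91, 1.72 and 1.78 TPM in GFP and at 3.63, 3.92 and 3.41 TPM in CTNNB1 and rose by 0.73 on the log2 scale (SE 0.09, limma adjusted p = 0.00049). BCL2L15, a family member known from the gut, was at 4.73, 4.32 and 3.80 TPM in GFP and at 6.57, 6.28 and 6.50 TPM in CTNNB1 (log2 fold change 0.50, adjusted p = 0.0031). It was at 3.91, 4.03 and 3.78 TPM in shNT1 and at 5.77, 5.98 and 5.79 TPM in shAPC (0.48, adjusted p = 0.0025), so its 2 treated groups lay above both controls. BNIP3L, a mitophagy receptor, rose in both arms (0.37, adjusted p = 0.016, and 0.35, adjusted p = 0.0077), and BCL2L13 fell in both (-0.17, adjusted p = 0.045, and -0.24, adjusted p = 0.023). The BNIP3L call in the CTNNB1 arm was lost without GFP replicate 2 or 3 or CTNNB1 replicate 2. The BCL2L13 calls held only without CTNNB1 replicate 1 in the first arm, and only without shNT1 replicate 2 or shAPC replicate 1 in the second, of the 6 such fits in each. In the shAPC arm 3 of 8 passed, 2 higher and 1 lower, with a median of 0.11. Of all genes 22.1% passed there, 7.24% higher and 14.9% lower.

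Downstream of the mitochondrial pore, 17 genes of the apoptosome, caspases, their inhibitors and the voltage-dependent anion channels were all tested. In the CTNNB1 arm BIRC5 (survivin) rose by 0.16 (adjusted p = 0.036) and VDAC3 fell by 0.20 (adjusted p = 0.029) on the log2 scale, 2 of 17 against 23.5% of all genes. The BIRC5 call was lost after median-ratio scaling (0.08, adjusted p = 0.27) and quantile normalization (adjusted p = 0.066), and of the fits without 1 library it held only in that without CTNNB1 replicate 1. That of VDAC3 was lost without GFP replicate 1 or 2 or CTNNB1 replicate 2. The list had a median of 0.05 that was -0.03 after median-ratio scaling. Under that scaling 4 of 17 passed, all lower, beside 2715 of the 11624 genes tested, and 1 passed after quantile normalization. In the shAPC arm VDAC1, the main channel of the outer mitochondrial membrane, was at 224.8, 219.0 and 232.3 TPM in shNT1 and at 188.2, 177.5 and 173.9 TPM in shAPC and fell by 0.32 (limma adjusted p = 0.0018). In all, 2 of 17 passed in that arm, both lower, against 22.1% of all genes, with a median of -0.09.

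The death receptor pathway meets the family at BID. Of its 11 genes, 3 passed in the CTNNB1 arm, 1 higher and 2 lower (median -0.07), against 23.5% of all genes. In the shAPC arm 6 passed, all lower (median -0.17), against 22.1% of all genes; genes called in that arm were mostly lower, 1758 of 2615. The latter count was 4 after median-ratio scaling and 5 after quantile normalization. No gene of the list was higher there even at an unadjusted limma p under 0.05, at which 7 were lower. TNFRSF10A, a TRAIL receptor, was at 24.7, 24.4 and 24.8 TPM in GFP, 21.7, 20.8 and 17.1 in CTNNB1, 19.9, 21.6 and 23.0 in shNT1 and 15.8, 13.6 and 12.7 in shAPC. It fell in both arms (log2 fold change -0.30, adjusted p = 0.027, and -0.58, adjusted p = 0.0013), as did the TNF receptor TNFRSF1A (-0.40, adjusted p = 0.0011, and -0.38, adjusted p = 0.0051). TNFSF10, which encodes the ligand TRAIL, was at 7.14, 7.19 and 7.19 TPM in GFP and at 10.4, 9.76 and 8.96 TPM in CTNNB1, a rise, and at 13.2, 12.7 and 12.6 TPM in shNT1 and 10.5, 10.1 and 10.1 TPM in shAPC, a fall. Its effects differed between arms by 0.68 on the log2 scale (SE 0.09, limma adjusted p = 0.00033). The call of TNFRSF10A in the CTNNB1 arm was lost without any 1 of the GFP libraries. FAS fell in shAPC (-0.40, adjusted p = 0.039), a call lost after median-ratio scaling (adjusted p = 0.055) and held, of the fits without 1 library, only in that without shNT1 replicate 1.

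Of 13 genes known to control the members through transcription or protein stability, 3 passed in the CTNNB1 arm, all higher (median 0.11). Of all genes 23.5% passed there, 16.3% higher. In the shAPC arm 6 passed, 2 higher and 4 lower (median -0.15), against 22.1% of all genes, 7.24% higher and 14.9% lower. That count of 6 was 4 with the replicate block and with no low-value filter. It was 8 of 12 under the filter of 5 TPM, and 4 to 7 without 1 library. FOXO3, an activator of BCL2L11 and BBC3, was at 22.5, 22.5 and 21.8 TPM in GFP and 40.7, 36.2 and 32.2 in CTNNB1, and at 29.002, 29.20 and 29.04 TPM in shNT1 and 38.1, 36.9 and 33.3 in shAPC. It rose in both arms (log2 fold change 0.68, adjusted p = 0.00032, and 0.30, adjusted p = 0.0079). TP73 rose in the CTNNB1 arm (0.45, adjusted p = 0.015), a call lost after quantile normalization (adjusted p = 0.059) and without GFP replicate 1 or 3 or CTNNB1 replicate 2, and FOXO1 (-0.46, adjusted p = 0.0020) and E2F1 (-0.27, adjusted p = 0.010) fell in the shAPC arm.

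Among 15 genes of the DNA damage and stress response outside the family, 4 rose and 0 fell in the CTNNB1 arm by limma (5 and 1 at an unadjusted p under 0.05), with a median of 0.04 that was -0.03 after median-ratio scaling, and 4 rose and 2 fell in the shAPC arm, with a median of 0.11. Of all genes, 16.3% rose and 7.16% fell in the CTNNB1 arm (23.5% called). In the shAPC arm 7.24% rose and 14.9% fell (22.1% called). The 6 genes called in the shAPC arm were 7 after median-ratio scaling, 4 with the replicate block and 3 without shAPC replicate 3. SESN1, a stress-induced regulator of growth signalling, was at 9.40, 9.63 and 10.3 TPM in GFP and 26.39, 22.03 and 18.29 in CTNNB1, and at 12.3, 11.6 and 13.7 TPM in shNT1 and 29.1, 25.6 and 26.6 in shAPC. It rose by 1.09 (SE 0.11, adjusted p = 0.00015) and 1.06 (SE 0.08, adjusted p = 1.9e-05) on the log2 scale. TP53INP1 rose by 0.97 (adjusted p = 0.00039) and 1.08 (adjusted p = 0.00010). It was low in GFP, at 0.879, 0.702 and 0.951 TPM, where the log2(TPM + 1) scale understates a change. The ratios of its mean TPM were 3.09 and 2.68 in the CTNNB1 and shAPC arms, beside 2.27 and 2.17 for SESN1. XPC (0.31, adjusted p = 0.021) and RRM2B (0.26, adjusted p = 0.014) rose in the CTNNB1 arm, and GADD45A rose (0.26, adjusted p = 0.014) and DDB2 fell (-0.33, adjusted p = 0.0056) in the shAPC arm. The calls were lost without GFP replicate 1 or 2 for XPC, without GFP replicate 2 or 3 or CTNNB1 replicate 2 for RRM2B, and without shNT1 replicate 1 or shAPC replicate 3 for GADD45A. The cell cycle inhibitor gene CDKN1A and the ubiquitin ligase gene MDM2 were chosen for mention after their values were seen and passed in neither arm: CDKN1A had log2 fold changes of -0.26 (adjusted p = 0.095) and 0.16 (adjusted p = 0.35), and MDM2 of -0.07 (adjusted p = 0.49) and -0.01 (adjusted p = 0.93).

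**Figure D4:**
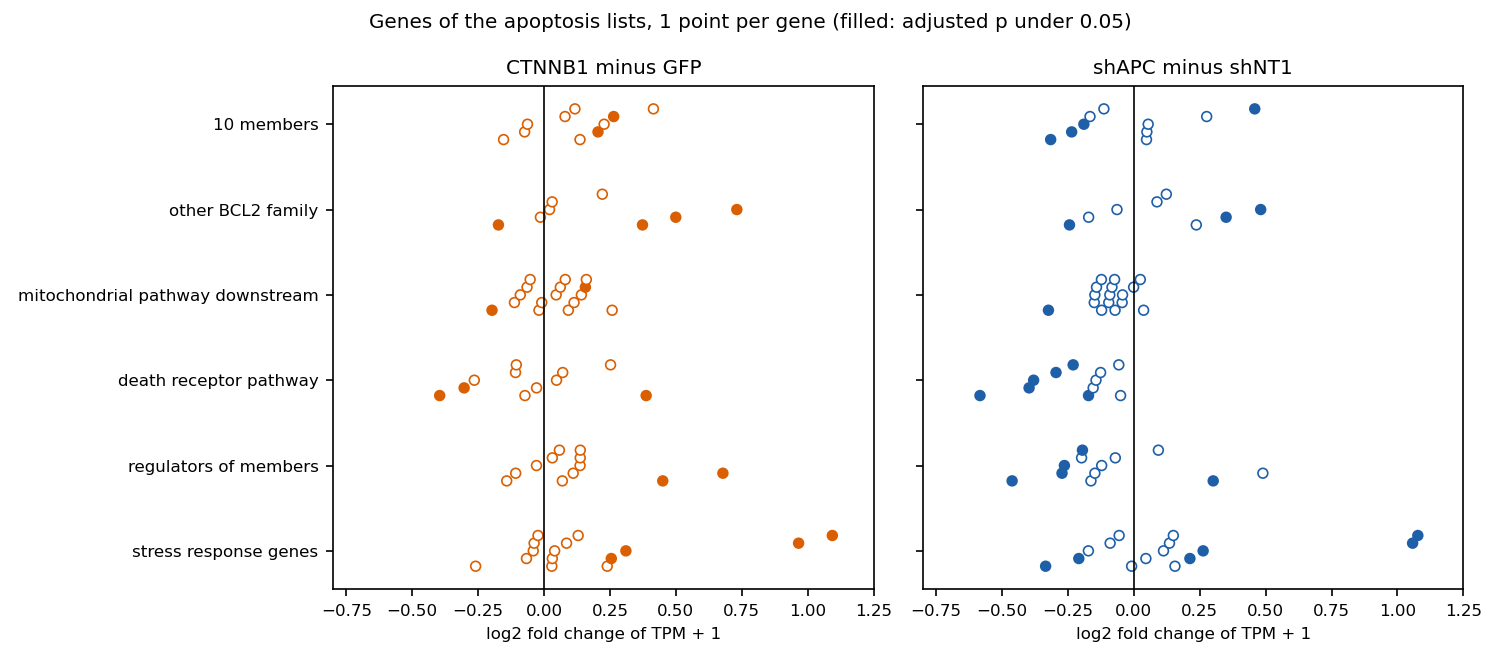
Log2 fold change, on the log2(TPM + 1) scale, of genes in the 10 members and 5 further lists in both arms; filled points passed the adjusted test. The spread of the members is narrower than that of the stress response list, where SESN1 and TP53INP1 lie near or above 1 in both arms.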

How the data were processed

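Gene expression was measured by mRNA sequencing of 12 HT-29 libraries, 3 in each of 4 groups taken from the sample titles. The authors deposited 1 table of TPM (length-scaled transcript shares with the same total in each column), a column per library, and 2 tables of limma comparisons. Per the submitters' processing notes, STAR 2.7.3a, the genome build hg38 and limma were used; the quantification tool, annotation, strand setting and filters are not given in the sources used here. The authors' deposited comparison tables give log2 fold changes, p-values and, as a score per gene, the moderated t and log-odds, which were not used. TPM keeps no depth, so no counting interval could be given.

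From the deposited TPM, log2(TPM + 1) was tested with limma 3.58.1 in R 4.3.3 (moderated variances with a mean-variance trend) over all genes with a mean of at least 1 TPM, separately for CTNNB1 against GFP and shAPC against shNT1, and over all 12 libraries for the difference between the arms. Benjamini-Hochberg adjusted p-values under 0.05 over all genes were called. Fold changes are on the log2(TPM + 1) scale, which understates the change of low genes. The fit was tested on simulated data. Alternatives were a pseudocount of 0.1, no low-value filter (genes above 0 in at least 1 library) or a mean of at least 5 TPM, median-ratio scaling, quantile normalization, no variance trend, a single fit of all 4 groups, the replicate number as a block, and leaving out each library.

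All 10 members are named. From each further list (other BCL2 family, mitochondrial pathway downstream, death receptor pathway, regulators of the members, DNA damage and stress response genes) the rule named up to 4 called genes per arm with the largest change, the targeted genes CTNNB1 and APC, and the 3 genes most correlated over 12 libraries with each of the 2 members with the largest called change. Cell type markers were lists for colon epithelium, fibroblast, leukocyte and endothelium. Counts cover whole lists, of which 2 named genes are not reported here. The members and lists were chosen with earlier results of these data known. Gene positions are from GENCODE v29 and promoter windows from RefSeq on GRCh38.p14.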

Additional observations from a re-analysis of the deposited data

Results flagged for a closer look

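The effect on MCL1 differed between the arms in the test of the difference itself: the CTNNB1 effect minus the shAPC effect was 0.31 on the log2(TPM + 1) scale (limma adjusted p = 0.035). The CTNNB1 effect was 0.12, with 2 of 3 CTNNB1 libraries above every GFP library, and the shAPC effect -0.19, with 3 of 3 shAPC libraries below every control. The difference passed in 3 of 7 other settings over all libraries and in 5 of 12 fits without 1 library. Under median-ratio scaling it was 0.19 (limma adjusted p = 0.12), and over all genes the median difference without scaling was 0.11. MCL1 was 1 of 10 members called, against 16.1% of all genes. The arms also differ in vector, collection day and doxycycline, from which this difference cannot be told apart.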

How the results depend on the processing

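BCL2L1 in the CTNNB1 arm and BCL2L2 and BBC3 in the shAPC arm kept direction and call under every alternative run; the calls of BCL2L11, MCL1 and BAX did not, and the cause was not tested. In the CTNNB1 arm the number of members called went from 2 to 1 with a replicate block, with no filter and in the single fit of all 4 groups, and was 1 to 2 without 1 library. In the shAPC arm it went from 4 to 2 with a replicate block, with no filter, after quantile normalization and with no variance trend, and was 2 to 4 without 1 library. For the difference it went from 1 to 0 with no filter, median-ratio scaling, quantile normalization or no variance trend (limma; 5, 3, 3 and 5 members at an unadjusted p under 0.05), and was 0 to 4 without 1 library, the 4 without shAPC replicate 1. Genes called without 1 library numbered 1499 to 3190 (CTNNB1 arm), 1484 to 2252 (shAPC arm) and 995 to 2143 (difference). The sign turned without 1 library for BCL2L1 (-0.014 to 0.093), BAK1 (-0.019 to 0.125) and BCL2L11 (-0.0068 to 0.122) in the shAPC arm, the first and last without shAPC replicate 1 and BAK1 without shNT1 replicate 3, and for the BIK difference (-0.095 to 0.383; -0.055 without CTNNB1 replicate 3, -0.095 without shNT1 replicate 3); none of these was called.

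Of genes called, the share higher was 69.5% in the CTNNB1 arm (46.2% after median-ratio scaling, 52.9% after quantile normalization), 32.8% in the shAPC arm (44.3% and 49.4%) and 82.8% for the difference (54.7% and 56.5%). Deviations from the group means correlated at 0.0757 to 0.209 between same-numbered libraries in the CTNNB1 arm (mean 0.135). In the shAPC arm these correlations were -0.21 to 0.0025 (mean -0.115). The means between different numbers, -0.067 and 0.058, are no separate comparison. Deviations add up to 0 in each group, which largely fixes those means once the same-numbered ones are known. Not every same-numbered pair was over 0.1, so the libraries were treated as sharing only a number. Still, 5 of 6 in the CTNNB1 arm (1 of 6 in the shAPC arm) correlated best with their own number. With the replicate block 2895, 1767 and 1752 genes were called in the CTNNB1 arm, the shAPC arm and the difference, beside 2730, 2615 and 1885, and 3 of 11 death receptor genes in the shAPC arm, beside 6; BCL2L13 was then called in neither arm. BIK, and BBC3 outside the shAPC arm, had no value under the filter of 5 TPM. Depth is unknown, and the precision of low genes such as BIK is limited by 3 libraries a group.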

Other observations

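Of the 13 genes known to control the members, 6 had effects that differed between the arms, against 16.1% of the 11741 genes tested. All 6 differences (TP73, FOXO1, FBXW7, E2F1, FOXO3 and STAT3) were positive, meaning a higher CTNNB1 effect than shAPC effect. All genes together shifted in that direction too, with a median difference of 0.11 beside 0.26 for the list. After median-ratio scaling 2 of the 13 passed, beside 1436 of the 11741 genes. The largest were TP73 and FOXO1, both 0.52 on the log2 scale (limma adjusted p = 0.029 and 0.0041); the first was lost under both scalings and in 7 of 12 fits without 1 library (GFP 1 or 3, CTNNB1 2, shNT1 2 or 3, shAPC 2 or 3). FOXO1 was at group means of 12.2 TPM in GFP, 12.8 in CTNNB1, 14.1 in shNT1 and 9.95 in shAPC. Among the stress response genes, the effect on DDB2, a DNA damage recognition gene, differed by 0.46 (adjusted p = 0.0063), with means of 13.0, 14.3, 14.5 and 11.3 TPM in the same order. The effect on VDAC1 differed by 0.32 (adjusted p = 0.0065). DDB2 and VDAC1 passed in 7 of 7 other settings and 12 of 12 fits without 1 library. The effect on BMF differed by 0.49 (adjusted p = 0.028), which was lost after median-ratio scaling and quantile normalization and without GFP replicate 2 or 3, CTNNB1 replicate 2, shNT1 replicate 2 or shAPC replicate 2 or 3 (adjusted p 0.017 to 0.072).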
